A study of Homo sapiens with 12 samples.

Results

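RAB genes encode the largest branch of the RAS superfamily of small GTPases, and here they were taken as every row of the count table whose symbol is RAB followed by a number and at most 1 letter from A to D. Of the 60612 named rows, 64 met this rule. One of them, RAB1C, is annotated as a processed pseudogene (GENCODE v44) and was left out, so that 63 RAB genes remained. Of these, 47 held enough reads to be tested and 16 did not.

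A RAB protein is a switch that is held on a membrane by prenyl tails when it carries GTP and is withdrawn into the cytosol when it carries GDP. Exchange factors load GTP, GTPase-activating proteins end the active state, a GDP dissociation inhibitor retrieves the inactive protein, and effectors read the active form to tether, move or fuse vesicles. Each RAB favours certain compartments, so the set of RABs a cell makes describes its routes of secretion, endocytosis, recycling and degradation. In luminal breast epithelium these routes deliver growth factor receptors, integrins and junction proteins to the cell surface and return them from it.

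Transcripts were counted by 3′ RNA-seq in CAMA-1, a human breast cancer cell line, long established, that expresses the oestrogen receptor (ER) and is labelled wild-type. Cells received DMSO as vehicle, abemaciclib at 100 nM, fulvestrant at 5 nM, or abemaciclib and fulvestrant together, for which the labels do not restate the doses. These doses are those of the labels, and the study's methods give a higher dose of abemaciclib unless otherwise noted. The labels give no treatment time. Abemaciclib inhibits the cyclin-dependent kinases CDK4 and CDK6, and fulvestrant binds ER and causes its degradation. There were 3 biological replicates for each of the 4 treatments, hence 12 libraries, all from 1 line grown in medium with serum.

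Libraries held 3299119 to 5164667 counts. All 10 luminal markers were well detected in DMSO, led by GATA3 at 3019 ± 183 CPM (counts per 1000000 of the normalised library size; mean ± SD, n = 3), and ESR1 stood at 93.3 ± 5.42 CPM. The basal markers KRT5, KRT14, TP63 and CNN1 and the stromal or immune markers COL1A2, PDGFRB, PECAM1, PTPRC, CD3E and CD68 were at 0 in every DMSO library. The other 2 of 6 basal markers were KRT17, at most 7 reads in any library, and OXTR, which rose under each treatment (0.93, 1.05 and 0.97 on the log2 scale). Of 9 stromal or immune markers, COL1A1 (16.1 ± 2.15 CPM in DMSO) rose under abemaciclib (0.45) and fulvestrant (0.48), COL3A1 (3.37 ± 0.173 CPM) rose under fulvestrant (1.41) and the combination (1.05), and VWF reached at most 3 reads in any library. Summed, the basal markers stood at 6.82 to 8.01 CPM in DMSO and 11.3 to 16.4 in treated libraries and the stromal or immune ones at 18.4 to 22 and 23.9 to 37.8 CPM, and their part in the RAB results was not tested. Both drugs lowered MKI67, a proliferation marker, from 511 ± 52.4 CPM to 54.2 ± 4.74 under abemaciclib, 43.7 ± 2.29 under fulvestrant and 2.21 ± 0.404 under the combination. Mitochondrial transcripts took 12 to 12.5% of counts in DMSO and 15.6 to 20.6% in treated libraries. With mitochondrial transcripts left out, the counts of RAB genes that passed against DMSO were 25, 26 and 26 for abemaciclib, fulvestrant and the combination, against 25, 26 and 27 with them. Fulvestrant replicate 3 was the library least like its group. In bulk samples, fewer cells of a type and less RNA per cell cannot be told apart.

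In DMSO-treated cells the RAB repertoire was dominated by a few genes. Because a 3′ read marks a transcript end, levels of different genes are compared here as transcript ends, without correction for length. RAB5C, a RAB of the early endosome, was the most abundant at 565 ± 62.4 CPM. RAB13, which serves traffic to cell junctions, followed at 451 ± 29.2 CPM and RAB2A, which acts between the endoplasmic reticulum and the Golgi, at 441 ± 22.8 CPM, and the libraries of these genes overlapped each other but not those of RAB5C. RAB1B (281 ± 16.1 CPM), RAB7A of late endosomes (206 ± 6.64 CPM) and RAB14 (205 ± 20.4 CPM) came next, and the libraries of RAB7A and RAB14 overlapped. The 5 most abundant genes gave 47.9% of all RAB CPM and the first 10 gave 69.3%. By mean level in DMSO, 12 tested genes stood at 100 CPM or more, 25 between 10 and 100 CPM and 10 under 10 CPM.

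**Figure D1:**
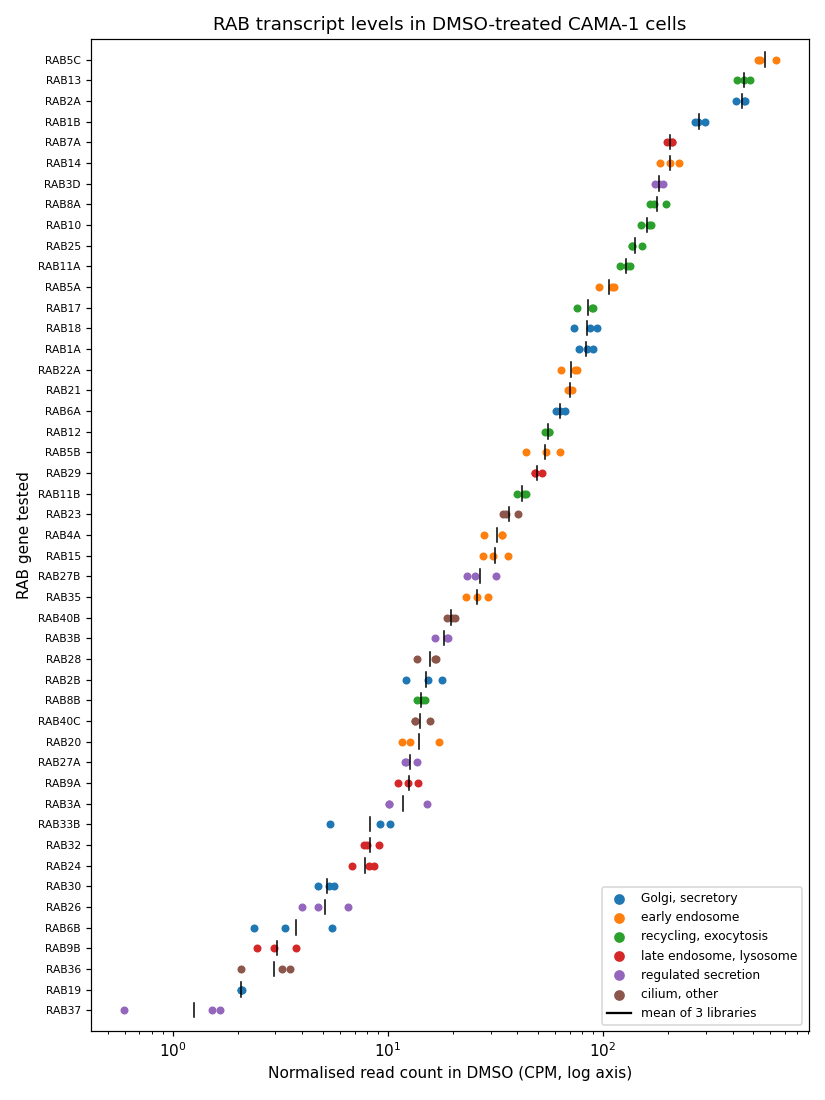
Normalised read count (CPM, log axis) of each of the 47 tested RAB genes in the 3 DMSO libraries, with 1 point per library, colours for the compartment and a black bar at the mean. RAB5C lies highest at a mean of 565 CPM and the points of 10 genes lie around means under 10 CPM.

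The 16 genes that were not tested were listed with few or no reads. RAB6D, RAB7B, RAB33A, RAB38, RAB39B, RAB40A, RAB41, RAB43 and RAB44 held 0 reads in all 12 libraries, which allows up to 3 reads, or 0.570 to 0.890 CPM, in any 1 library (counting error only). RAB3C, RAB4B, RAB6C, RAB31, RAB34, RAB39A and RAB42 held reads in some libraries but never more than 19. A total of 79.3% of the exonic bases of RAB43 lie in the readthrough gene ISY1-RAB43, which was also listed at 0. Of those of RAB4B, 36.8% lie in readthrough genes, among them RAB4B-EGLN2, which like EGLN2 itself was listed at 0. The listed values of RAB43 and RAB4B thus depend on how such reads were assigned. For them the limit from counting error does not cover reads assigned elsewhere or left out, and absence cannot be told. Among the genes at 0 reads, RAB38 forms lysosome-related organelles in pigment cells and RAB33A and RAB39B are mostly neuronal.

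Promoter sequence was read from RefSeq (GRCh38.p14) for 50 of the 63 genes, 38 of them tested, as the 250 bases before and 50 after the start. The promoters printed here are those of RAB5B and RAB27A, which had the largest rise and the largest fall under the combination among RAB genes at 10 CPM or more in DMSO, and those of RAB17 and RAB29, which hold TGACCT, an arm of the oestrogen response element, shown in capitals and starting at positions 31 and -176 relative to the start. That of RAB5B lies at chr12:55973699-55973998, plus strand, that of RAB27A at chr15:55319074-55319373, minus strand, that of RAB17 at chr2:237590685-237590984, minus strand, and that of RAB29 at chr1:205775433-205775732, minus strand. The RefSeq start used for RAB17 lies 10880 bases inside the gene as GENCODE v44 gives it, so this window is at an internal start and the region before the gene's outermost end was not searched.
RAB5B: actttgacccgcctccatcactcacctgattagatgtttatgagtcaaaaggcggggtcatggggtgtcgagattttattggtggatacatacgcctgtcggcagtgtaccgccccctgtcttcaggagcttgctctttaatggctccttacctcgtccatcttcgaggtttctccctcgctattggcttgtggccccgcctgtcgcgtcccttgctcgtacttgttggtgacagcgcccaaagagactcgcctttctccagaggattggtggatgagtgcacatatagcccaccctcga
RAB27A: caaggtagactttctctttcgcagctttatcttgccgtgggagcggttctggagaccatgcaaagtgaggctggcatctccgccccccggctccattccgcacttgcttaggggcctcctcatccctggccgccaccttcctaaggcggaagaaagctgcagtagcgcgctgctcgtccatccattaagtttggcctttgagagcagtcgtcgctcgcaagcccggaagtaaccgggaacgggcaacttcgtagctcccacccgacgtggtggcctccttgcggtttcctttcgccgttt
RAB17: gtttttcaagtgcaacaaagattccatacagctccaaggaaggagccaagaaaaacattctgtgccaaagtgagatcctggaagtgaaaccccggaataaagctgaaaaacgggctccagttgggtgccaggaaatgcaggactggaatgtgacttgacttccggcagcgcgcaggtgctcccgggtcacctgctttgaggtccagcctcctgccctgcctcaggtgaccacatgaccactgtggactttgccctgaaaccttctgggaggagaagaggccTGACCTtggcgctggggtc
RAB29: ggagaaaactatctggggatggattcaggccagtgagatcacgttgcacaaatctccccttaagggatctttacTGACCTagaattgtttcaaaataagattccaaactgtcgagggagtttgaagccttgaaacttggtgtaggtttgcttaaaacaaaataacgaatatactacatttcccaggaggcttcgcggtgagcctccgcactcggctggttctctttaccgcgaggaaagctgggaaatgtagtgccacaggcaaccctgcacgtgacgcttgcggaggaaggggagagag
The arm TGACCT was searched on both strands and stood in 4 of 38 promoters of tested RAB genes (10.5%; RAB17, RAB22A, RAB24 and RAB29) and in 13.8% of all 35116 promoters of that length. Of these 4, RAB22A and RAB24 are not printed, and neither passed against DMSO under any treatment. The full oestrogen response element GGTCANNNTGACC, which can overlap such an arm, stood in 0 of 38 and in 0.0570% of all promoters. The E2F spellings TTTGGCGC and TTTCCCGC, either of them on either strand, stood in 0 of 38 and in 2.27% of all promoters. A match is a description of letters, and no match says only that these letters are not in this window.

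Summed over the 63 genes, RAB transcripts stood at 4053 ± 34.7 CPM in DMSO, 4430.5 ± 60.6 under abemaciclib, 5059.6 ± 239.9 under fulvestrant and 5370.2 ± 195 under the combination (SD, n = 3). Every treated library lay above every DMSO library in this sum. A single gene carried much of the difference: RAB5C made up 46.2% of the difference between the combination and DMSO, and its share of all RAB CPM went from 13.9% to 21.9%. Without RAB5C the sums were 3488 ± 38.6 CPM in DMSO, 3671 ± 9.88 under abemaciclib, 4040.4 ± 95.9 under fulvestrant and 4196 ± 15.2 under the combination. These sums are a description and were not tested.

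RAB transcripts changed in both directions under each drug, and rises outnumbered falls. A gene counts as changed where edgeR's quasi-likelihood test gave a Benjamini-Hochberg adjusted p under 0.05 over all 11803 genes tested. Under abemaciclib 25 of 47 RAB genes passed (53.2%), against 41.2% of all genes, with 18 higher (all genes 20.5%) and 7 lower (all genes 20.7%). Under fulvestrant 26 passed (55.3%, all genes 51.0%), 19 higher (all genes 25.3%) and 7 lower (all genes 25.7%). Under the combination 27 passed (57.4%, all genes 55.2%), 21 higher (all genes 27.7%) and 6 lower (all genes 27.5%). In either direction, the share of RAB genes that changed thus lay above that of all genes for abemaciclib and close to it for the other treatments. By direction, 38.3%, 40.4% and 44.7% of RAB genes were higher and 14.9%, 14.9% and 12.8% lower, in the same order. For the lists below, the same shares of all genes higher and lower apply to their rises and falls. No list was tested as a set.

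The median log2 fold change of the tested RAB genes was 0.12 under abemaciclib, 0.22 under fulvestrant and 0.29 under the combination, where the medians of all genes were 0.00, 0.01 and 0.01. All 3 libraries lay above all 3 DMSO libraries for 19 RAB genes under abemaciclib, 19 under fulvestrant and 26 under the combination, and below them for 7, 10 and 8. Groups were as fully apart, in either direction, for 54.2%, 54.7% and 62.1% of all tested genes. The 3 comparisons share the DMSO libraries and are given side by side. Leaving out single libraries moved the counts to between 19 and 25 for abemaciclib, 23 and 28 for fulvestrant and 24 and 29 for the combination. No share of all genes is set beside counts from such fits, here or below, so they show only how far the counts move.

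**Figure D2:**
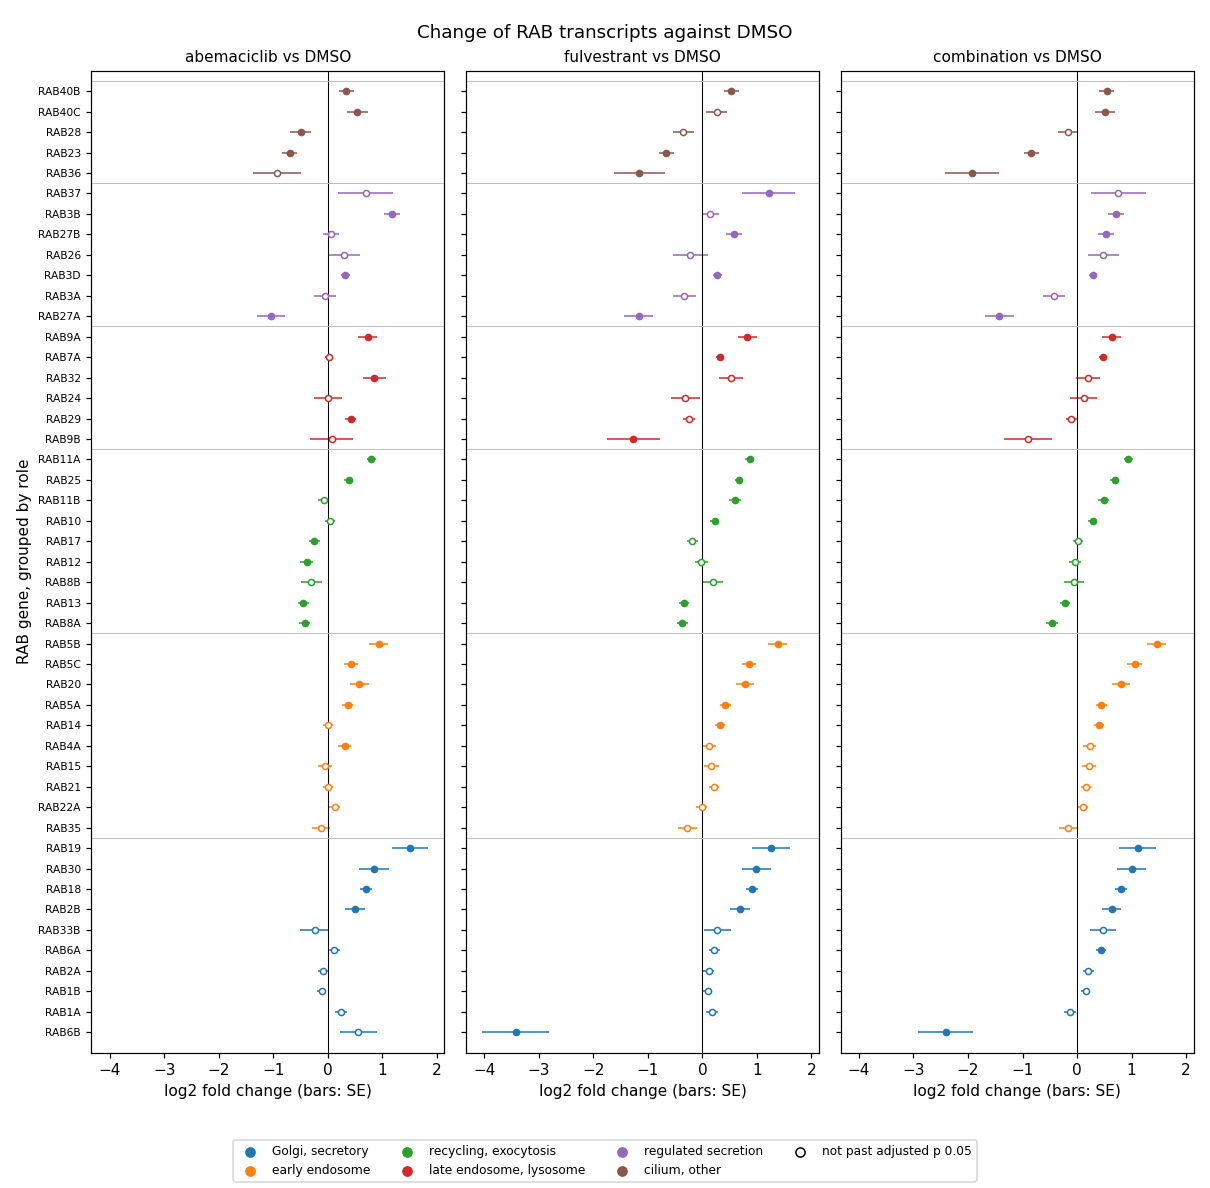
Log2 fold change against DMSO of the 47 tested RAB genes in 3 panels, 1 per treatment, grouped and coloured by compartment. Bars are SE, filled points passed an adjusted p of 0.05, and the early endosome genes lie at or to the right of 0 wherever they are filled, while RAB6B lies far to the left under fulvestrant (-3.43).

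Early endosome RABs, which receive cargo after endocytosis and sort it, rose or did not pass the test. Of 10 tested, 5 rose and 0 fell under abemaciclib, and the counts were the same under fulvestrant (5 and 0) and the combination (5 and 0). These are 50%, 50% and 50% of the list, against 41.2%, 51.0% and 55.2% of all genes under the same treatments. By direction, 20.5%, 25.3% and 27.7% of all genes were higher and 20.7%, 25.7% and 27.5% lower. Whether the direction of this short list differs from that of all genes was not tested. Their median log2 fold changes were 0.22, 0.27 and 0.32. The RAB5 paralogues, which drive homotypic fusion of early endosomes, all rose under every treatment.

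RAB5C (chr17:42124978-42155044, minus strand, GRCh38) stood at 523, 535 and 636 CPM in DMSO, 808, 693 and 777 under abemaciclib, 1084, 854 and 1119.7 under fulvestrant and 979.7, 1153 and 1389 under the combination. All treated libraries lay above all DMSO libraries. The log2 fold changes were 0.43 ± 0.13 (SE; adjusted p 0.0221) under abemaciclib, 0.85 ± 0.13 (SE; adjusted p 0.000147) under fulvestrant and 1.06 ± 0.13 (SE; adjusted p 1.89e-05) under the combination. RAB5B (chr12:55973913-55996683, plus strand) stood at 43.9, 54.2 and 62.8 CPM in DMSO, 102, 107 and 100.1 under abemaciclib, 144, 176 and 104 under fulvestrant and 132, 157 and 156 under the combination. Its groups did not overlap with DMSO, and fulvestrant replicate 3 was the lowest of its group. The changes were 0.93 ± 0.18 (SE; adjusted p 0.00106), 1.38 ± 0.17 (SE; adjusted p 2.55e-05) and 1.46 ± 0.17 (SE; adjusted p 1.23e-05) in the same order. RAB5A changed least of the paralogues, by 0.37 ± 0.10 (SE; adjusted p 0.006), 0.42 ± 0.10 (SE; adjusted p 0.00146) and 0.44 ± 0.10 (SE; adjusted p 0.000709), from 106 ± 9.31 CPM in DMSO to 145 ± 13 under the combination.

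RAB20, a RAB of phagosomes and maturing endosomes, stood at 11.6, 12.7 and 17.4 CPM in DMSO, 21, 21.4 and 20.5 under abemaciclib, 24.2, 29.1 and 19.6 under fulvestrant and 24.1, 24 and 25.8 under the combination. All treated libraries were above the highest DMSO library, and the log2 fold changes were 0.58 ± 0.17 (SE; adjusted p 0.00801), 0.78 ± 0.17 (SE; adjusted p 0.000382) and 0.81 ± 0.17 (SE; adjusted p 0.000171). RAB14, which links the Golgi and endosomes, rose under fulvestrant (0.32, adjusted p 0.00527) and the combination (0.40, adjusted p 0.000564), with 0.01 under abemaciclib. RAB4A, of the fast recycling route, rose under abemaciclib (0.31, adjusted p 0.0423). RAB15, RAB21, RAB22A and RAB35 passed against DMSO in none of the 3 treatments, with log2 fold changes between -0.28 and 0.22.

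The call for RAB5C under abemaciclib was lost without DMSO replicate 1 or 2, abemaciclib replicate 1 or 3 or fulvestrant replicate 3 (0.38 to 0.43). That for RAB4A was lost without DMSO replicate 3, abemaciclib replicate 1 or 3 or combination replicate 2 (0.22 to 0.34) and with DESeq2 or no filter on low counts or the replicate number as a block. Conversely RAB21 passed under fulvestrant without fulvestrant replicate 3 (0.24) and with upper-quartile factors. A share of 28.8% of the exonic bases of RAB5C is also annotated to another gene, ENSG00000267261, on the same strand, and its part in the RAB5C counts was not tested.

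**Figure D3:**
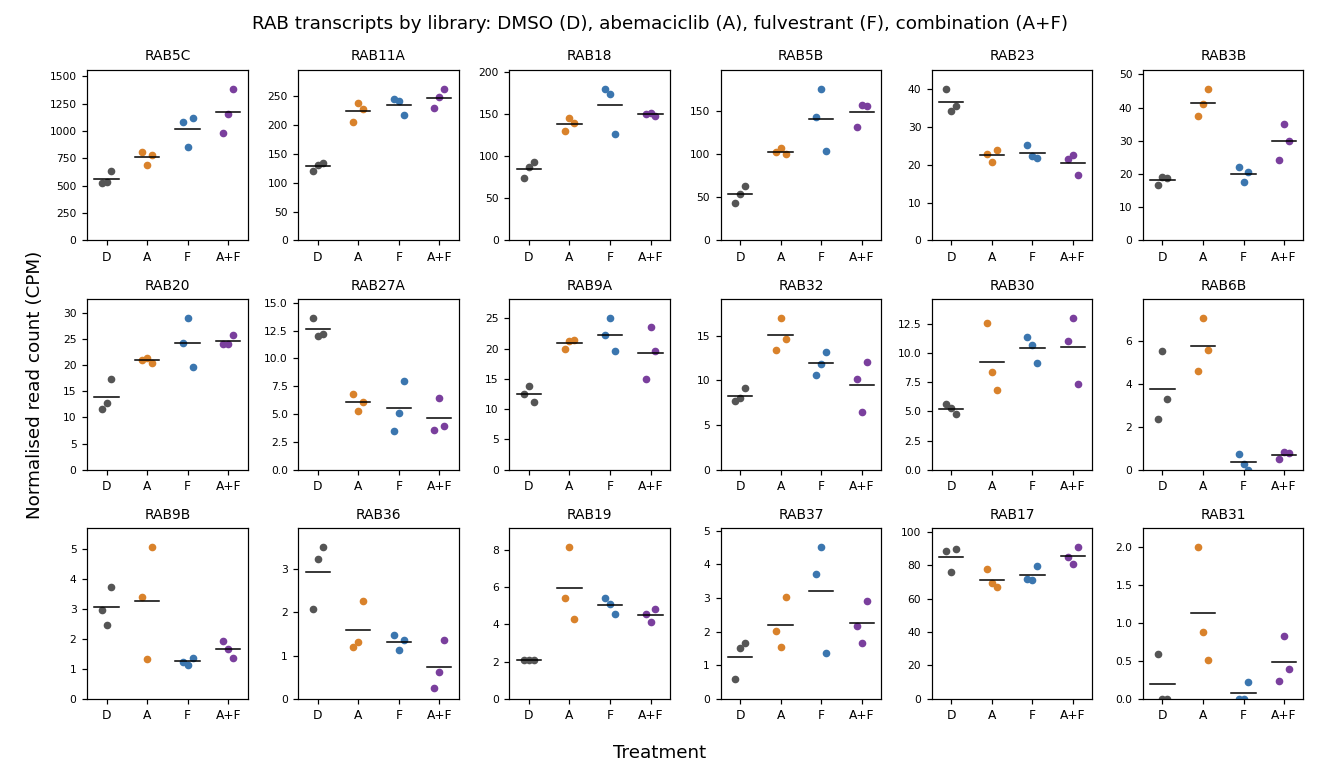
Normalised read count (CPM) in each library for 18 RAB genes, which are the 16 chosen by size of change and RAB17 and RAB31, with 1 panel per gene, points for libraries and black bars for group means. D, A, F and A+F stand for DMSO, abemaciclib, fulvestrant and the combination, and RAB5C, RAB5B, RAB11A and RAB18 have every treated point above every DMSO point.

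RABs of recycling endosomes and exocytosis were called in both directions. Of 9 tested, 2 rose and 4 fell under abemaciclib, 4 rose and 2 fell under fulvestrant and 4 rose and 2 fell under the combination, with medians of -0.24, 0.19 and 0.02. The list's called shares were 66.7%, 66.7% and 66.7%, against 41.2%, 51.0% and 55.2% of all genes. The genes that rose under at least 1 treatment were RAB11A, RAB11B, RAB25 and RAB10, and those that fell were RAB8A, RAB13, RAB12 and RAB17. RAB8B passed in none of the 3 comparisons.

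RAB11A (chr15:65726054-65891989, plus strand), which defines the recycling endosome, stood at 120.2, 129.8 and 134 CPM in DMSO, 204, 238 and 227 under abemaciclib, 245, 241 and 217 under fulvestrant and 228, 249 and 262 under the combination. Every treated library was above the DMSO libraries, and the treated groups overlapped each other. The log2 fold changes were 0.80 ± 0.09 (SE; adjusted p 1.77e-08), 0.87 ± 0.09 (SE; adjusted p 1.91e-09) and 0.94 ± 0.08 (SE; adjusted p 2.82e-10). RAB25, its epithelial relative, also rose under each treatment, by 0.38 ± 0.08 (SE; adjusted p 0.000432), 0.67 ± 0.08 (SE; adjusted p 8.89e-08) and 0.69 ± 0.08 (SE; adjusted p 4.66e-08), from 141 ± 9.43 CPM in DMSO to 227 ± 15.1 under the combination. RAB11B, the third member, rose under fulvestrant (0.60 ± 0.10 SE, adjusted p 2.08e-05) and the combination (0.49 ± 0.10 SE, adjusted p 0.000197) and stood at -0.08 ± 0.11 (SE; adjusted p 0.594) under abemaciclib. A transcript annotated on the opposite strand and sharing 6.28% of the exonic bases of RAB11B, RAB11B-AS1, also rose, by 1.98 and 2.10 under fulvestrant and the combination. It rose under abemaciclib too (0.93, adjusted p 0.0391), where RAB11B did not pass. Since the use of strand in counting is not stated, reads of this pair cannot be told apart where they overlap.

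RAB8A, which carries cargo to the plasma membrane and the primary cilium, fell under each treatment, with log2 fold changes of -0.42 ± 0.10 (SE; adjusted p 0.00168), -0.37 ± 0.10 (SE; adjusted p 0.00403) and -0.46 ± 0.10 (SE; adjusted p 0.000435), from 179 ± 16.2 CPM to 129.8 ± 11 under the combination. RAB13 fell from 451 ± 29.2 CPM to 331 ± 14.6 under abemaciclib (-0.45, adjusted p 0.0004), 356 ± 61.6 under fulvestrant (-0.34, adjusted p 0.00375) and 388 ± 21.1 under the combination (-0.22, adjusted p 0.0486). RAB12, which sends transferrin receptor to degradation, fell under abemaciclib (-0.39, adjusted p 0.0094), and RAB10, of exocytic transport, rose under fulvestrant (0.22, adjusted p 0.0352) and the combination (0.29, adjusted p 0.00649). The call for RAB13 under the combination was lost without DMSO replicate 1 or 2, abemaciclib replicate 1, 2 or 3, fulvestrant replicate 1 or combination replicate 2 or 3 (-0.22 to -0.17) and with DESeq2 or upper-quartile factors or mitochondrial transcripts left out, and that for RAB10 under fulvestrant without DMSO replicate 3 or fulvestrant replicate 2 (0.12 to 0.18) and with DESeq2 or a fit to the compared groups alone. On either strand, 44% of the exonic bases of RAB8A overlap other transcripts, and 24.8% of those of RAB13 are shared on the same strand, and the part of either in the counts was not tested.

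RAB17, an epithelial RAB of apical recycling and transcytosis (chr2:237574322-237601614, minus strand), stood at 88.4, 76 and 89.9 CPM in DMSO, 77.6, 69.3 and 67 under abemaciclib, 72.1, 71.1 and 79.5 under fulvestrant and 85.2, 80.8 and 91.1 under the combination. Of its abemaciclib libraries and of its fulvestrant libraries, 1 lay within the DMSO range and the others under it, while the combination overlapped DMSO. The log2 fold changes were -0.24 ± 0.10 (SE; adjusted p 0.0456), -0.19 ± 0.10 (SE; adjusted p 0.115) and 0.02 ± 0.10 (SE; adjusted p 0.883), so that abemaciclib alone of the treatments passed against DMSO. This call was lost without DMSO replicate 1 or 3, abemaciclib replicate 2 or 3, fulvestrant replicate 1 or combination replicate 1 or 2 (-0.24 to -0.20) and with DESeq2 or upper-quartile factors or no filter on low counts. RAB31, which moves cargo from the trans-Golgi to endosomes, was barely expressed, with 2, 0 and 0 reads in DMSO, 10, 4 and 2 under abemaciclib, 0, 0 and 1 under fulvestrant and 1, 4 and 2 under the combination. In a fit with no filter on low counts its change under abemaciclib was 2.74 ± 1.04 (SE; adjusted p 0.0428), on 2 reads in DMSO and 16 under abemaciclib over 3 libraries each, of which abemaciclib replicate 1 held 10.

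Among RABs of the Golgi and the secretory pathway, which form and move carriers between the endoplasmic reticulum, the Golgi and the surface, 10 were tested: 4 rose and 0 fell under abemaciclib, 4 rose and 1 fell under fulvestrant and 5 rose and 1 fell under the combination. The called shares were 40%, 50% and 60%, against 41.2%, 51.0% and 55.2% of all genes, and the medians 0.37, 0.25 and 0.46. The abundant members RAB1A, RAB1B and RAB2A passed against DMSO in none of the 3 treatments, and their log2 fold changes lay between -0.13 and 0.24. RAB18, RAB2B, RAB19 and RAB30 rose under each.

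RAB18, found on the endoplasmic reticulum and lipid droplets (chr10:27504174-27543207, plus strand), stood at 73.6, 87 and 93.4 CPM in DMSO, 130.3, 145 and 139 under abemaciclib, 180.1, 174 and 126 under fulvestrant and 151, 151 and 147 under the combination. All treated libraries lay above DMSO, and fulvestrant replicate 3 was below the other libraries of its group. The changes were 0.70 ± 0.11 (SE; adjusted p 1.86e-05), 0.91 ± 0.11 (SE; adjusted p 2.38e-07) and 0.81 ± 0.11 (SE; adjusted p 1.03e-06). RAB19 was rare, at 2.08, 2.09 and 2.07 CPM in DMSO, 5.40, 8.17 and 4.30 under abemaciclib, 5.44, 5.08 and 4.56 under fulvestrant and 4.57, 4.14 and 4.85 under the combination, and it was higher in all treated libraries. Its changes were 1.51 ± 0.33 (SE; adjusted p 0.000523), 1.26 ± 0.34 (SE; adjusted p 0.00318) and 1.11 ± 0.34 (SE; adjusted p 0.00707). RAB30, a Golgi RAB, stood at 5.64, 5.32 and 4.75 CPM in DMSO, 12.6, 8.39 and 6.82 under abemaciclib, 11.4, 10.7 and 9.12 under fulvestrant and 11.1, 13 and 7.38 under the combination, and again no treated library overlapped DMSO. Its changes were 0.85 ± 0.27 (SE; adjusted p 0.0127), 0.99 ± 0.27 (SE; adjusted p 0.00311) and 1.00 ± 0.26 (SE; adjusted p 0.00211). RAB2B rose by 0.50 under abemaciclib, 0.69 under fulvestrant and 0.63 under the combination, with adjusted p 0.027, 0.00193 and 0.00317.

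RAB6B, the mostly neuronal paralogue of the Golgi RAB6A, fell furthest of all RAB genes. It stood at 2.37, 5.51 and 3.31 CPM in DMSO, 4.60, 7.06 and 5.56 under abemaciclib, 0.741, 0.282 and 0 under fulvestrant and 0.481, 0.827 and 0.777 under the combination. These values rest on few reads, 53 in DMSO and 77 under abemaciclib but 4 under fulvestrant and 10 under the combination, summed over 3 libraries. The log2 fold change was -3.43 ± 0.61 (SE; adjusted p 3.45e-05) under fulvestrant and -2.41 ± 0.50 (SE; adjusted p 0.0002) under the combination, with 0.56 ± 0.35 (SE; adjusted p 0.201) under abemaciclib. RAB6A, which is far more abundant, rose only under the combination among the treatments compared with DMSO (0.44, adjusted p 0.000475), from 63.1 ± 3.05 to 85.8 ± 5.87 CPM. The retrocopy RAB6C was too rare to test, with 2, 1 and 3 reads in DMSO, 11, 4 and 4 under abemaciclib, 11, 8 and 7 under fulvestrant and 7, 19 and 7 under the combination, and reads of so close a copy of RAB6A may be split between them. With no filter on low counts its change was 2.22 ± 0.67 (SE; adjusted p 0.00496) under fulvestrant and 2.32 ± 0.65 (SE; adjusted p 0.00173) under the combination. RAB6C-AS1, on the opposite strand, shares 26.1% of the exonic bases of RAB6C. Over all libraries it held 89 reads, against 84 for RAB6C, and its part in the RAB6C counts was not tested.

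Single libraries decided some Golgi calls. RAB2B under abemaciclib was lost without DMSO replicate 1 or 2 or abemaciclib replicate 1 or 3 (0.39 to 0.50) and under the combination without combination replicate 3 (0.43), and RAB30 under abemaciclib was lost without abemaciclib replicate 1 (0.55). RAB6A passed under fulvestrant without fulvestrant replicate 3 (0.30), as did RAB1A without fulvestrant replicate 3 (0.34), and RAB2A without fulvestrant replicate 2 (0.25). RAB1A also passed under abemaciclib without fulvestrant replicate 3 (0.24). Under the combination RAB1B passed without fulvestrant replicate 3 (0.16), RAB2A without fulvestrant replicate 2 or 3 (0.20) and RAB33B without DMSO replicate 2 or combination replicate 1 (0.61 to 0.70). Transcripts on the opposite strand share 43.8% of the exonic bases of RAB1B and 22.9% of those of RAB1A, in the latter case CEP68, whose log2 fold changes were 0.56, 0.38 and 0.43, and their part in the counts was not tested.

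RABs of late endosomes, lysosomes and lysosome-related organelles gave a mixed picture. Of 6 tested, 3 rose and 0 fell under abemaciclib, 2 rose and 1 fell under fulvestrant and 2 rose and 0 fell under the combination, with medians of 0.25, 0.03 and 0.16. The called shares were 50%, 50% and 33.3% for this list and 41.2%, 51.0% and 55.2% for all genes. RAB7A, which drives fusion with lysosomes, rose under fulvestrant (0.32, adjusted p 0.000635) and the combination (0.48, adjusted p 2.77e-06), from 206 ± 6.64 to 257 ± 3.22 and 287 ± 5.40 CPM, and stood at 209.7 ± 8.99 CPM under abemaciclib (0.03, adjusted p 0.791).

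RAB9A, which returns receptors from late endosomes to the trans-Golgi, stood at 12.5, 13.9 and 11.2 CPM in DMSO, 20.01, 21.2 and 21.5 under abemaciclib, 22.2, 25.1 and 19.6 under fulvestrant and 14.9, 23.6 and 19.6 under the combination. No treated library overlapped DMSO, and the changes were 0.73 ± 0.17 (SE; adjusted p 0.00135), 0.82 ± 0.18 (SE; adjusted p 0.000294) and 0.64 ± 0.18 (SE; adjusted p 0.00311). Its paralogue RAB9B, X-linked like RAB9A, stood at 2.97, 2.47 and 3.72 CPM in DMSO, 3.40, 1.32 and 5.05 under abemaciclib, 1.24, 1.13 and 1.37 under fulvestrant and 1.92, 1.65 and 1.36 under the combination. The fulvestrant libraries lay under all DMSO libraries, and the changes were -1.27 ± 0.48 (SE; adjusted p 0.0296) under fulvestrant, 0.07 ± 0.39 (SE; adjusted p 0.9) under abemaciclib and -0.89 ± 0.44 (SE; adjusted p 0.0876) under the combination. RAB32, of lysosome-related organelles and mitochondria, stood at 7.72, 7.98 and 9.09 CPM in DMSO, 13.4, 17 and 14.7 under abemaciclib, 10.6, 11.8 and 13.2 under fulvestrant and 10.1, 6.41 and 12 under the combination. All abemaciclib and fulvestrant libraries lay above DMSO and the combination overlapped it, with changes of 0.85 ± 0.21 (SE; adjusted p 0.00208), 0.52 ± 0.22 (SE; adjusted p 0.053) and 0.20 ± 0.22 (SE; adjusted p 0.474).

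RAB29, a RAB of the Golgi and stressed lysosomes whose promoter is printed above, rose under abemaciclib only among the treatments, from 49.6 ± 2.35 to 66.4 ± 2.16 CPM (0.42 ± 0.10 SE, adjusted p 0.00159), and stood at 41.8 ± 2.12 CPM under fulvestrant (-0.25, adjusted p 0.0553) and 46.1 ± 3.96 under the combination (-0.10, adjusted p 0.422). With RLE size factors or a minimum of 10 counts in every library its lower value under fulvestrant also passed. RAB24, linked to autophagy, passed in none of the 3 comparisons, and 44.8% of its exonic bases are shared with MXD3 on the same strand. MXD3 itself fell, with log2 fold changes of -2.69, -2.17 and -3.18, and its part in the RAB24 counts was not tested. The RAB9B call under fulvestrant was lost without DMSO replicate 3 or fulvestrant replicate 1 or 2 (-1.25 to -1.08) and with DESeq2, and RAB32 passed under fulvestrant without fulvestrant replicate 1 or combination replicate 2 or 3 (0.52 to 0.61).

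Regulated secretion RABs, which dock granules and release exosomes, were called in both directions. Of 7 tested, 2 rose and 1 fell under abemaciclib, 3 rose and 1 fell under fulvestrant and 3 rose and 1 fell under the combination, with medians of 0.30, 0.15 and 0.48. Of the list 42.9%, 57.1% and 57.1% passed, where all genes had 41.2%, 51.0% and 55.2%. RAB27A (chr15:55202966-55319113, minus strand), which docks secretory granules and multivesicular bodies, stood at 13.7, 12 and 12.2 CPM in DMSO, 6.80, 5.30 and 6.06 under abemaciclib, 3.46, 5.08 and 7.98 under fulvestrant and 3.61, 6.41 and 3.88 under the combination. Every treated library lay below every DMSO library, and the changes were -1.04 ± 0.26 (SE; adjusted p 0.0018), -1.17 ± 0.27 (SE; adjusted p 0.000575) and -1.42 ± 0.27 (SE; adjusted p 5.14e-05). Its paralogue RAB27B rose under fulvestrant (0.58 ± 0.14 SE, adjusted p 0.00142) and the combination (0.53 ± 0.14 SE, adjusted p 0.00277), from 26.9 ± 4.37 CPM in DMSO to 39.8 ± 2.45 and 38.3 ± 4.10, and stood at 27.7 ± 5.01 CPM under abemaciclib.

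RAB3B, a granule RAB, stood at 16.6, 19 and 18.8 CPM in DMSO, 37.6, 41.1 and 45.7 under abemaciclib, 22.2, 17.5 and 20.7 under fulvestrant and 24.3, 35.2 and 30.1 under the combination. Abemaciclib gave the highest values, fulvestrant overlapped DMSO and the combination lay between, with changes of 1.18 ± 0.15 (SE; adjusted p 2.79e-07), 0.15 ± 0.16 (SE; adjusted p 0.466) and 0.71 ± 0.15 (SE; adjusted p 0.000237). RAB3D, the abundant member of the subfamily at 182 ± 8.10 CPM in DMSO, rose by 0.32, 0.28 and 0.29, all past the threshold. RAB3A and RAB26 passed in none of the 3 comparisons. RAB37 was rare, at 0.594, 1.52 and 1.65 CPM in DMSO, 2.00, 1.55 and 3.03 under abemaciclib, 3.71, 4.51 and 1.37 under fulvestrant and 2.17, 1.65 and 2.91 under the combination, and fulvestrant replicate 3 fell within the DMSO range. Its changes were 1.22 ± 0.49 (SE; adjusted p 0.0388) under fulvestrant, 0.69 ± 0.51 (SE; adjusted p 0.292) under abemaciclib and 0.76 ± 0.50 (SE; adjusted p 0.207) under the combination, and the fulvestrant call was lost without DMSO replicate 1 or 2 or fulvestrant replicate 1 or 2 (0.90 to 1.36) and with DESeq2 or a fit to the compared groups alone. RAB26 passed under the combination without combination replicate 1 (0.73). Other transcripts share 25.1% of the exonic bases of RAB3D and 21.6% of those of RAB37, and their part in the counts was not tested.

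The remaining 5 tested genes include RABs of the primary cilium and adaptors of ubiquitin ligases. Of these, 2 rose and 2 fell under abemaciclib, 1 rose and 2 fell under fulvestrant and 2 rose and 2 fell under the combination, with medians of -0.50, -0.35 and -0.17. That is 80%, 60% and 80% of these few genes, against 41.2%, 51.0% and 55.2% of all genes. RAB23, an antagonist of Hedgehog signalling, stood at 40.1, 34.2 and 35.6 CPM in DMSO, 22.8, 20.7 and 23.8 under abemaciclib, 25.2, 22.3 and 21.7 under fulvestrant and 21.4, 22.5 and 17.3 under the combination. All treated libraries lay below DMSO and the treated groups overlapped, with changes of -0.70 ± 0.14 (SE; adjusted p 0.000161), -0.66 ± 0.14 (SE; adjusted p 0.000236) and -0.84 ± 0.14 (SE; adjusted p 8.74e-06). BAG2 shares 57.8% of the exonic bases of RAB23 on the opposite strand but held no more than 2 reads in any library. RAB36, which binds an adaptor of lysosomal transport, stood at 2.08, 3.23 and 3.51 CPM in DMSO, 1.20, 1.32 and 2.27 under abemaciclib, 1.48, 1.13 and 1.37 under fulvestrant and 0.241, 0.620 and 1.36 under the combination, and its fulvestrant and combination libraries lay below DMSO. Its changes were -0.93 ± 0.44 (SE; adjusted p 0.0911), -1.16 ± 0.47 (SE; adjusted p 0.039) and -1.92 ± 0.50 (SE; adjusted p 0.00184), on 11 reads over the combination libraries.

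RAB40B, an adaptor of a cullin ubiquitin ligase, rose by 0.34, 0.53 and 0.54 under abemaciclib, fulvestrant and the combination, with adjusted p 0.0455, 0.00198 and 0.00109. RAB40C rose under abemaciclib (0.54, adjusted p 0.0198) and the combination (0.51, adjusted p 0.0209), and RAB28, of the cilium, fell under abemaciclib (-0.50, adjusted p 0.0403). The RAB40B call under abemaciclib was lost without DMSO replicate 1, 2 or 3, abemaciclib replicate 2 or 3 or combination replicate 2 (0.29 to 0.37) and with DESeq2 or RLE size factors or no filter on low counts, the RAB28 call without DMSO replicate 2 or 3 or abemaciclib replicate 2 or 3 (-0.45 to -0.35) and with DESeq2 or no filter on low counts and the RAB40C call without DMSO replicate 2 or 3 or abemaciclib replicate 2 (0.45 to 0.51). RAB40C under the combination was lost without DMSO replicate 2 or 3 or combination replicate 1 or 3 (0.42 to 0.48), and RAB36 under fulvestrant without DMSO replicate 2 or 3 or fulvestrant replicate 1, 2 or 3 (-1.23 to -1.03) and with DESeq2 or no filter on low counts.

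Some paralogues were called in opposite directions. Under fulvestrant and the combination RAB27A fell where RAB27B rose, RAB9B fell under fulvestrant where RAB9A rose, and under the combination RAB6B fell where RAB6A rose. RAB9B rests on 41 reads in DMSO and 15 under fulvestrant, and its call was lost in some fits, as given above. RAB6B rests on 53 reads in DMSO and 10 under the combination. In the RAB5 and RAB11 subfamilies every call against DMSO was a rise, and in the RAB8 pair the only calls, for RAB8A, were falls. These are comparisons of 2 separately tested genes, and the difference between paralogues was not itself tested.

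**Figure D4:**
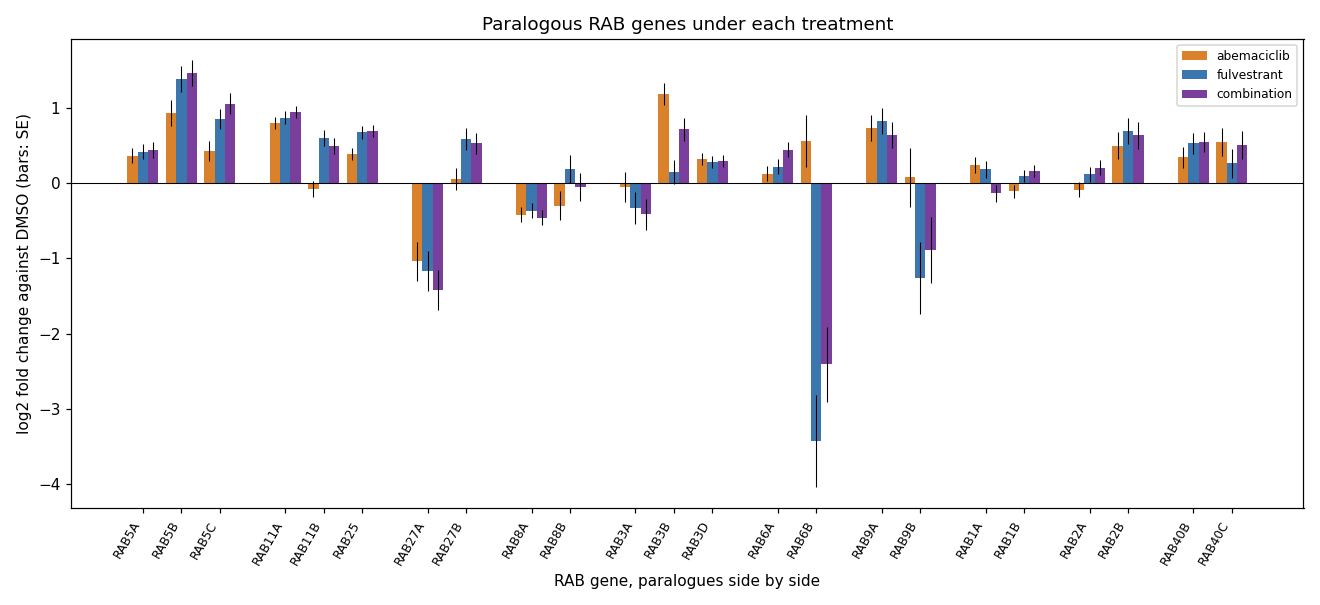
Log2 fold change against DMSO (bars: SE) of paralogous RAB genes set side by side, in orange for abemaciclib, blue for fulvestrant and purple for the combination. RAB5A, RAB5B and RAB5C all lie above 0, while RAB27A (combination -1.42) and RAB27B (0.53) lie on opposite sides of it.

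The combination was next compared with each drug alone. Adding fulvestrant to abemaciclib changed 19 of 47 RAB genes (40.4%), against 33.5% of all genes, 14 higher (all genes 15.9%) and 5 lower (all genes 17.7%), with a median of 0.15. RAB6B showed the largest fall (-2.97 ± 0.47 SE, adjusted p 1.41e-05), and RAB32 (-0.65, adjusted p 0.0152), RAB29 (-0.52, adjusted p 0.000206), RAB3B (-0.46, adjusted p 0.00976) and RAB1A (-0.37, adjusted p 0.0106) were the others that fell. Among the rises were RAB5C (0.63, adjusted p 0.00273), RAB11B (0.57, adjusted p 8.05e-05), RAB5B (0.53, adjusted p 0.0258), RAB7A (0.45, adjusted p 1.64e-05), RAB14 (0.39, adjusted p 0.00149) and RAB25 (0.30, adjusted p 0.00407). The others that rose were RAB33B (0.72), RAB27B (0.47), RAB12 (0.35), RAB6A (0.32), RAB2A (0.29), RAB1B (0.27), RAB17 (0.26) and RAB10 (0.24). Of the 19 calls, 7, for RAB5C, RAB6B, RAB7A, RAB11B, RAB14, RAB25 and RAB29, held under every alternative run.

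The other 12 calls in this comparison depended on single libraries. RAB1A was lost without abemaciclib replicate 3 (-0.33), RAB1B without abemaciclib replicate 1 or 2 or combination replicate 1 (0.22 to 0.27) and RAB2A without abemaciclib replicate 2 or 3 or combination replicate 1, 2 or 3 (0.25 to 0.31). RAB3B was lost without abemaciclib replicate 3 or combination replicate 1 (-0.39 to -0.34), RAB5B without abemaciclib replicate 1, 2 or 3 or combination replicate 2 or 3 (0.49 to 0.56) and RAB6A without abemaciclib replicate 1 or combination replicate 3 (0.28). RAB10 was lost without abemaciclib replicate 1 or 2 or combination replicate 1, 2 or 3 (0.19 to 0.26) and with DESeq2 or no filter on low counts, RAB12 without abemaciclib replicate 1 or 2 or combination replicate 1 (0.30 to 0.36) and RAB17 without abemaciclib replicate 2 or 3 or combination replicate 1 or 3 (0.22 to 0.27) and with DESeq2 or no filter on low counts. RAB27B was lost without abemaciclib replicate 1 or combination replicate 2 (0.33 to 0.42), RAB32 without abemaciclib replicate 2 or combination replicate 2 (-0.55 to -0.43) and RAB33B without abemaciclib replicate 2 or 3 or combination replicate 2 or 3 (0.60 to 0.73). RAB13 passed without fulvestrant replicate 2 or 3 (0.23) and with no filter on low counts or a fit to the compared groups alone, and RAB28 and RAB9B passed without abemaciclib replicate 1 (0.58) and without abemaciclib replicate 2 (-1.34). Without abemaciclib replicate 2 the count of RAB genes that passed was 12.

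Adding abemaciclib to fulvestrant changed 1 of 47 RAB genes (2.13%), against 1.92% of all genes (0.297% higher and 1.63% lower). This was RAB3B, which went from 20.2 ± 2.43 to 29.8 ± 5.43 CPM (0.57 ± 0.15 SE, adjusted p 0.0459). The median over the RAB genes was 0.05, and 6 passed an unadjusted p of 0.05. No share of all genes at that unadjusted threshold is set beside this count, so nothing about RAB genes is read from it. The RAB3B call was lost without DMSO replicate 2 or 3, abemaciclib replicate 1, 2 or 3, fulvestrant replicate 1 or 2 or combination replicate 2 or 3 (0.43 to 0.64) and with DESeq2 or RLE size factors or a minimum of 10 counts in every library or a fit to the compared groups alone or the replicate number as a block. RAB1A passed as lower without fulvestrant replicate 3 (-0.48). The early and recycling endosome genes that rose most against DMSO did not pass, at 0.20 ± 0.13 (SE; adjusted p 0.617) for RAB5C, 0.08 ± 0.16 (SE; adjusted p 0.905) for RAB5B and 0.07 ± 0.08 (SE; adjusted p 0.796) for RAB11A.

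The interaction, taken as the abemaciclib effect among fulvestrant-treated cells less its effect among cells without fulvestrant, passed for 12 of 47 RAB genes (25.5%), against 21.1% of all genes. It was positive for 2 (all genes 9.49%) and negative for 10 (all genes 11.6%), with a median of -0.03 over the RAB genes and -0.01 over all genes. RAB11A had the smallest adjusted p. Abemaciclib changed it by 0.80 ± 0.09 without fulvestrant and by 0.07 ± 0.08 (SE) with it, an interaction of -0.72 ± 0.12 (SE; adjusted p 5.94e-05). RAB18 had 0.70 ± 0.11 without and -0.10 ± 0.11 with fulvestrant, an interaction of -0.79 ± 0.15 (SE; adjusted p 0.000586). For RAB9A the values were 0.73 ± 0.17 and -0.19 ± 0.16, and the interaction -0.92 ± 0.24 (SE; adjusted p 0.00657). RAB19 showed the most negative interaction at -1.66 ± 0.45 (SE; adjusted p 0.00822), on low counts, and RAB32 followed at -1.17 ± 0.30 (SE; adjusted p 0.00641).

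The other negative interactions were RAB5B (-0.85, adjusted p 0.0242), RAB3B (-0.61, adjusted p 0.0399), RAB1A (-0.56, adjusted p 0.0128), RAB25 (-0.37, adjusted p 0.0212) and RAB3D (-0.30, adjusted p 0.0476). Both positive ones concerned genes that were lower under abemaciclib alone, RAB13 (0.57, adjusted p 0.00286) and RAB17 (0.45, adjusted p 0.0197). RAB17 changed by -0.24 by abemaciclib without fulvestrant and by 0.21 with it. RAB5C, the most abundant gene, did not pass (-0.22, adjusted p 0.444). Calls were lost for RAB5B without DMSO replicate 2, abemaciclib replicate 2, fulvestrant replicate 1 or combination replicate 1 (-0.86 to -0.78), for RAB17 without DMSO replicate 3, abemaciclib replicate 2 or 3, fulvestrant replicate 1 or combination replicate 3 (0.40 to 0.43) and for RAB25 without DMSO replicate 2 or 3, abemaciclib replicate 1 or combination replicate 2 or 3 (-0.35 to -0.32). Those for RAB3B were lost without DMSO replicate 1, 2 or 3, abemaciclib replicate 2 or 3, fulvestrant replicate 1 or combination replicate 1 or 3 (-0.65 to -0.49) and with DESeq2, and for RAB3D without DMSO replicate 2 or 3, abemaciclib replicate 1, 2 or 3, fulvestrant replicate 1 or 2 or combination replicate 1 or 2 (-0.33 to -0.26) and with DESeq2 or no filter on low counts or the replicate number as a block. Leaving out fulvestrant replicate 3 raised the number of interactions that passed to 18, adding RAB1B, RAB2A, RAB8A, RAB12, RAB20 and RAB27A, and other single libraries decided RAB5A (without fulvestrant replicate 2, -0.47), RAB2B (without combination replicate 3, -0.76), RAB23 (without combination replicate 3, 0.63) and RAB28 (without abemaciclib replicate 1, 0.93). The share of all genes that passed without fulvestrant replicate 3 is not given.

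**Figure D5:**
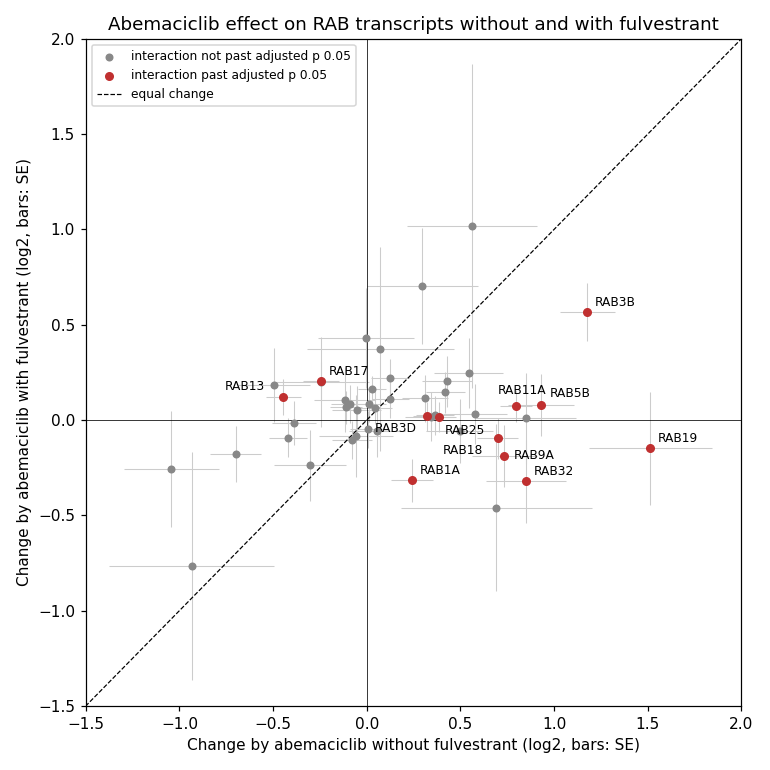
Log2 change by abemaciclib without fulvestrant (x axis) against the change by abemaciclib with fulvestrant (y axis) for the 47 tested RAB genes, with SE bars. Red points passed the interaction test, the dashed line marks equal change, and RAB11A (0.80 and 0.07) and RAB18 (0.70 and -0.10) lie far to the right of it.

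Genes that act on RABs were described with the same test, in lists of core machinery (11 tested), exchange factors (35), GTPase-activating proteins (33) and effectors (56). In the core machinery 2 rose and 1 fell under abemaciclib, 1 rose and 0 fell under fulvestrant and 1 rose and 3 fell under the combination, or 27.3%, 9.09% and 36.4% of the list, below the 41.2%, 51.0% and 55.2% of all genes. ARL6IP5, a prenylated RAB acceptor family member of the endoplasmic reticulum, rose under each, by 0.53 ± 0.08 (SE; adjusted p 7.05e-06), 0.90 ± 0.08 (SE; adjusted p 4.01e-10) and 0.94 ± 0.08 (SE; adjusted p 1.07e-10). Under abemaciclib GDI2, which withdraws inactive RABs from membranes, rose (0.30, adjusted p 0.00637). Under the combination PDE6D, which solubilises prenylated proteins, and RABGGTA, a subunit of the enzyme that prenylates RABs, passed narrowly as lower (-0.48, adjusted p 0.0498 and -0.36, adjusted p 0.0477).

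Of the exchange factors, 7 rose and 2 fell under abemaciclib, 7 rose and 1 fell under fulvestrant and 7 rose and 3 fell under the combination, and their medians were 0.11, 0.10 and 0.06. The called shares of 25.7%, 22.9% and 28.6% lay below those of all genes (41.2%, 51.0% and 55.2%). TRAPPC9, of the TRAPP II tethering complex, rose under fulvestrant (0.74, adjusted p 1.48e-05) and the combination (0.60, adjusted p 0.000182), as did MON1B, of the RAB7 exchange factor (0.38, adjusted p 0.00136 and 0.45, adjusted p 0.000204), and HPS1, of the RAB32 and RAB38 exchange factor (0.41, adjusted p 0.0317 and 0.49, adjusted p 0.0082). RIC1, of the RAB6 exchange factor (0.50, adjusted p 0.0242), DENND4A (0.47, adjusted p 0.0227) and DENND2D (0.26, adjusted p 0.0242) rose under abemaciclib. DENND4C rose under fulvestrant (0.48, adjusted p 0.0273) and DENND4B under the combination (0.49, adjusted p 0.00843). The call was lost for RIC1 without DMSO replicate 1 or 3 or abemaciclib replicate 1 or with DESeq2 (0.36 to 0.49), for DENND4A without DMSO replicate 2 or 3 or abemaciclib replicate 2 or 3 or with DESeq2 or no filter on low counts (0.41 to 0.49) and for DENND2D without DMSO replicate 2 or abemaciclib replicate 1 or 3 or with DESeq2 (0.25 to 0.26). It was lost for DENND4C without DMSO replicate 2 or 3 or fulvestrant replicate 1 or 3 or with DESeq2 or a fit to the compared groups alone (0.30 to 0.47), for DENND4B without DMSO replicate 2 or combination replicate 3 (0.32 to 0.34) and for HPS1 under fulvestrant without DMSO replicate 1 or 3 or fulvestrant replicate 1 or 2 or with DESeq2 or a fit to the compared groups alone (0.32 to 0.41). In the core machinery it was lost for PDE6D without DMSO replicate 2 or 3, abemaciclib replicate 1, 2 or 3, fulvestrant replicate 1 or combination replicate 1 or 3 or with DESeq2 or upper-quartile factors or mitochondrial transcripts left out (-0.51 to -0.34) and for RABGGTA without DMSO replicate 1 or 2, abemaciclib replicate 1, 2 or 3, fulvestrant replicate 1 or combination replicate 1 or 2 or with DESeq2 or upper-quartile factors or no filter on low counts or a fit to the compared groups alone or the replicate number as a block (-0.38 to -0.29).

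Among the GTPase-activating proteins more rose than fell, with 9 higher and 4 lower under abemaciclib, 13 and 4 under fulvestrant and 16 and 2 under the combination, and medians of 0.19, 0.32 and 0.40. The called shares of 39.4%, 51.5% and 54.5% were close to those of all genes (41.2%, 51.0% and 55.2%). Of the list 27.3%, 39.4% and 48.5% were higher and 12.1%, 12.1% and 6.06% lower. Of all genes 20.5%, 25.3% and 27.7% were higher and 20.7%, 25.7% and 27.5% lower. TBC1D16, which acts on RAB4A, rose by 1.23 ± 0.09 (SE; adjusted p 3.79e-12) under fulvestrant and 1.33 ± 0.09 (SE; adjusted p 4.89e-13) under the combination, from 88.2 ± 8.15 to 222 ± 18 CPM in the latter. SGSM2, which acts on RAB32 and RAB38, rose by 1.09 (adjusted p 3.91e-06) and 1.26 (adjusted p 2.23e-07). TBC1D9 (1.01, adjusted p 1.17e-05) and TBC1D25 (0.88, adjusted p 0.000135) rose under abemaciclib, and TBC1D15, which acts on RAB7 (-0.90, adjusted p 1.24e-06), and TBC1D10B (-0.84, adjusted p 0.000789) fell. Under fulvestrant EVI5L (0.90, adjusted p 6.27e-08) and TBC1D14 (0.81, adjusted p 0.00019) rose too, and under the combination TBC1D9 (1.03, adjusted p 4.06e-06) and TBC1D25 (0.84, adjusted p 0.000137).

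Effectors changed in both directions, with 14 higher and 4 lower under abemaciclib, 15 and 8 under fulvestrant and 20 and 8 under the combination, and medians of 0.15, 0.07 and 0.14. The called shares of 32.1%, 41.1% and 50% lay below those of all genes (41.2%, 51.0% and 55.2%). RAB11FIP4, which binds the RAB11 subfamily, rose by 0.82 ± 0.09 (SE; adjusted p 3.73e-08), 1.18 ± 0.09 (SE; adjusted p 1.39e-11) and 1.36 ± 0.09 (SE; adjusted p 5.32e-13), and RAB11FIP5 rose by 0.92 (adjusted p 1.00e-06) under abemaciclib and 1.00 (adjusted p 1.50e-07) under fulvestrant. UNC13D, the partner of RAB27A in granule priming, rose under each treatment (1.75, 1.37 and 1.12). FYCO1, which links RAB7 to kinesin, rose by 1.21, 1.31 and 1.28, and PLEKHM1, another RAB7 effector, by 0.95 (adjusted p 6.33e-05) under the combination. Of the effectors that fell, 4 are named here after their values were seen. EHBP1, which binds RAB8 and RAB10, fell under each treatment (-0.52, -0.73 and -0.74), and BICD2, a dynein adaptor that binds RAB6, fell under fulvestrant (-0.69, adjusted p 1.10e-05) and the combination (-0.59, adjusted p 4.99e-05). MICAL3, a RAB8 effector, also fell under both (-0.95, adjusted p 0.00152 and -0.56, adjusted p 0.0346), and its call under the combination was lost without DMSO replicate 1 or 3 or combination replicate 1 or 3 or with DESeq2 or no filter on low counts (-0.58 to -0.40). SYTL5, a RAB27 effector, was called higher under abemaciclib and lower under the other treatments on few reads, at 0.890, 1.33 and 1.03 CPM in DMSO, 5.80, 7.06 and 6.06 under abemaciclib, 0, 0 and 0.228 under fulvestrant and 0, 0.207 and 0 under the combination. Between the combination and fulvestrant edgeR called 0 of the 135 regulators and effectors, DESeq2 called 0, and 16 passed an unadjusted p of 0.05 with edgeR. The share of all genes at that unadjusted threshold is not given, so nothing is read from the 16. Without fulvestrant replicate 3 edgeR called 4, and without combination replicate 1 it called 1.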

How the data were processed

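The values deposited by the authors are unnormalised read counts for each gene symbol. As the study's methods and the submitters' processing notes state, 3′ libraries (Lexogen QuantSeq FWD) were aligned with STAR to hg38 and counted with featureCounts 2.0.1. Whether counting used strand is not given in the sources used here, and no molecular identifiers are named, so reads are not independent molecules and limits cover counting error only.

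Groups came from the treatment labels. Of 60656 rows, 44 had no name and 0 reads and were left out. From these counts edgeR 4.0.16 (limma 3.58.1, R 4.3.3) kept 11803 genes by its filterByExpr rule on the 4 groups, at a count of 10 and a total of 15. Library sizes were scaled by TMM, and 1 model with 4 group means was fitted to all 12 libraries by robust quasi-likelihood. F tests gave 5 pairwise comparisons and the interaction, with Benjamini-Hochberg adjustment over all genes and a threshold of 0.05. SEs derive from the F statistic. CPM use TMM-scaled library sizes.

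RAB genes, roles and regulator lists were chosen with earlier results of these data known. Values per library are given for RAB17, RAB31 and every RAB gene that passed with an absolute log2 fold change of at least 0.8 against DMSO or passed between the combination and fulvestrant. Of regulators, up to 4 per list and treatment with a mean of at least 10 CPM are named, by size of change. One regulator that met this rule is not reported here. Of 44 exchange factor symbols, 42 were found.

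Alternatives were DESeq2 1.42.0 (the study's tool), RLE and upper-quartile factors, no filter on low counts, at least 10 counts in every library, only the groups compared, replicate number as a block and each library left out. Leaving out mitochondrial transcripts was added after seeing the data. On simulated counts with 200 genes changed 2-fold (191 tested), the test of abemaciclib against DMSO recovered 154 with 11 false calls among 11470 genes, and the interaction recovered 118 with 5. In the data 41.2% of genes were called under abemaciclib, and the median absolute log2 change of all genes was 0.34. The simulated figures therefore check the code and do not give the recovery or error of the calls reported.

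Coordinates and shares of exonic bases are from GENCODE v44 and promoters from RefSeq, both on GRCh38. The study's methods name an earlier GENCODE release for counting, so the shares may differ in the annotation behind the counts. No 2 libraries of a group agreed within sampling noise. Precision is limited by totals of 3299119 to 5164667 counts and 3 libraries per group.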

Additional observations from a re-analysis of the deposited data

Results flagged for a closer look

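For 12 RAB genes the change by abemaciclib differed between cells with and without fulvestrant, by a test of that difference (interaction, adjusted p under 0.05 over all genes). On the log2 scale the difference was -1.66 for RAB19, -1.17 for RAB32, -0.92 for RAB9A, -0.85 for RAB5B, -0.79 for RAB18, -0.72 for RAB11A, -0.61 for RAB3B, -0.56 for RAB1A, -0.37 for RAB25 and -0.30 for RAB3D. It was 0.57 for RAB13 and 0.45 for RAB17. The adjusted p ranged from 5.94e-05 to 0.0476. Across all genes tested 21.1% passed the same test. The calls for RAB3B, RAB3D, RAB5B, RAB17 and RAB25, 5 of the 12, did not pass in some fits that dropped 1 library, and dropping fulvestrant replicate 3 raised the number to 18. The share of all genes that passed without that library is not given.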

How the results depend on the processing

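Of 110 calls on RAB genes over the 6 contrasts, 77 were kept under every alternative run, 33 were lost under at least 1 and none changed direction; 25 further values passed under some alternative. Of 42 calls on regulators and effectors that met the rule for naming, 33 were kept under every alternative. The number of RAB genes that passed stayed within 1.5 times the reported one, except for the combination against abemaciclib, where leaving out 1 library gave 12 to 20, and against fulvestrant, where 1 became 0 with DESeq2 (2 at an unadjusted p under 0.05, against 6 in edgeR), RLE size factors, at least 10 counts in every library or only the groups compared and 0 to 2 with 1 library left out. Leaving out 1 library gave 19 to 25 for abemaciclib, 23 to 28 for fulvestrant, 24 to 29 for the combination and 8 to 18 for the interaction. Shares of all genes in these fits are not given. For regulators and effectors, DESeq2 gave 17 interactions against 28, and 1 library left out gave 16 to 33 interactions and 0 to 4 calls between the combination and fulvestrant. The cause of these differences was not tested.

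Replicate numbers showed no clear pairing of libraries. Deviations from group means of libraries with the same number in other groups correlated by -0.21 to 0.12 over 18 pairs (median 0.02). For libraries with other numbers the range was -0.21 to 0.30 over 36 pairs (median -0.000225). A weak pairing would not be seen in such values. With the replicate number as a block the combination and fulvestrant differed in 0 RAB genes, against 1 without it. With 3 libraries per group, changes of genes under about 10 CPM, such as RAB19, RAB36, RAB37 and RAB6B, rest on few reads.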
